A study of Mus musculus with 4 samples.

Results

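Bone morphogenetic protein (BMP) ligands and the proteins that restrain them were examined by RNA sequencing in mouse bone marrow-derived mesenchymal stem/progenitor cells (mBMSCs) depleted of ZBP1. The 9 genes were chosen by name from the 24346 gene rows of the expression table, and each name matched exactly 1 row. They are the ligands Bmp2, Bmp4 and Bmp6, the secreted antagonists Grem1, Nog, Chrdl1 and Fst, the membrane protein Bambi, and Bmp1. Bmp1 carries the family name but encodes a protease of the astacin family, not a ligand, so it is described apart from the ligands.

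The cells came from the femoral marrow of wild-type 3-month-old C57BL/6 mice, C57BL/6J in the methods, and were passaged after non-adherent cells had been washed off. Both groups were transfected with siRNA by lipofection, a scrambled siRNA (siScr) in the controls and an siRNA against ZBP1 (siZBP1) in the depleted cells, and RNA was taken on the third day after transfection. No osteogenic medium is named for these samples. There were 2 samples per group, and neither the labels nor the methods say whether they came from separate mice, so p-values measure the spread between these samples, which may be technical. Which siRNA or siRNAs against ZBP1 were used for these samples is not stated.

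BMPs are secreted as dimers and signal through pairs of serine/threonine kinase receptors to the receptor-activated SMAD proteins, which enter the nucleus with SMAD4 and switch on genes such as those of the ID family. In bone marrow stroma this pathway is known for driving progenitors toward osteoblasts. Its range is set outside the cell by antagonists: noggin, gremlin and the chordin-like proteins bind BMPs, follistatin binds activins most tightly and some BMPs, and BAMBI is a receptor-like protein without a kinase domain that takes a receptor's place.

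Values are FPKM, fragment numbers scaled to transcript length and sequencing depth, which can therefore be compared between genes. Differences were tested with limma, a linear model fitted to every gene that moderates each variance with those of all genes, on log2(FPKM + 1). The fit took the 11959 genes whose mean over the 4 samples reached 1 FPKM, and calls were made at a Benjamini-Hochberg adjusted p under 0.05. A change on this scale understates the change of genes near 1 FPKM. Over all genes tested, 14.8% were called lower and 13.5% called higher after depletion. The targeted gene, Zbp1, was at 86.0 and 62.0 FPKM in the siScr samples and at 11.5 and 11.6 FPKM in the siZBP1 samples.

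Read counts are not given with the values. Steps between low values, read from genes that have 1 annotated transcript, placed the depth very roughly at 14000000 and 19000000 fragments for siScr and 10000000 and 18000000 for siZBP1, and no counting error was computed from it. The cultures were not stromal cells alone. The macrophage markers Cd68 and Csf1r stood at 712 and 467 FPKM in siScr replicate 1, and the summed level of 15 macrophage markers was 7991 and 9079 FPKM in siScr samples and 13442 and 12692 FPKM in siZBP1 samples, with 14 of the 15 higher in both siZBP1 samples than in both siScr samples. Of 12 stromal markers, 8 were lower without overlap, with sums of 5660 and 4739 FPKM in siScr and 3276 and 3317 FPKM in siZBP1 samples. Of 9 osteoblast markers 8 were likewise lower, with sums of 3483 and 2859 FPKM against 1194 and 1253 FPKM. Col1a1 is in both lists and made up most of the osteoblast sums, so the falls of the stromal and osteoblast sums are not separate. It was at 3066 and 2520 FPKM in siScr and 1128 and 1191 FPKM in siZBP1 samples. Col1a2, a further stromal marker, was at 2092 and 1806 FPKM in siScr and 1829 and 1811 FPKM in siZBP1 samples. The 6 endothelial markers summed to between 4.65 and 5.71 FPKM and the 6 lymphocyte markers to at most 0.305 FPKM, with Cd3g at 0. The 8 adipocyte markers summed to 390 and 405 FPKM in siScr samples and 441 and 464 FPKM in siZBP1 samples, with Plin1, Cidec and Cfd at 0. Adipoq was at most 0.219 FPKM, and 4 of the 8 had means under 1 FPKM, so these sums rest on the remaining markers. In bulk samples, fewer cells of a type and less RNA per cell cannot be told apart, and the part of these shifts in the results for the BMP genes was not tested.

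Depletion of ZBP1 came with lower transcript levels of Bmp4 and of the activin and BMP antagonist Fst. They were the only 2 past the threshold among the 6 of the 9 genes that were tested, against 14.8% of all genes called lower. Bmp4 stood at 13.5% and Fst at 29.5% of their siScr means. Bmp1, by contrast, sat at 105% of its siScr mean. Of the 9 genes, 6 reached a mean of 1 FPKM and were tested, while Bmp2, Bmp6 and Nog lay under it. No tested gene of the 9 was higher by limma. At an unadjusted limma p under 0.05, 0 were higher and 3 were lower (Bmp4, Fst and Bambi). The share of all genes at that unadjusted level was not computed, so unadjusted counts here and below have no background to be read against.

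**Figure D1:**
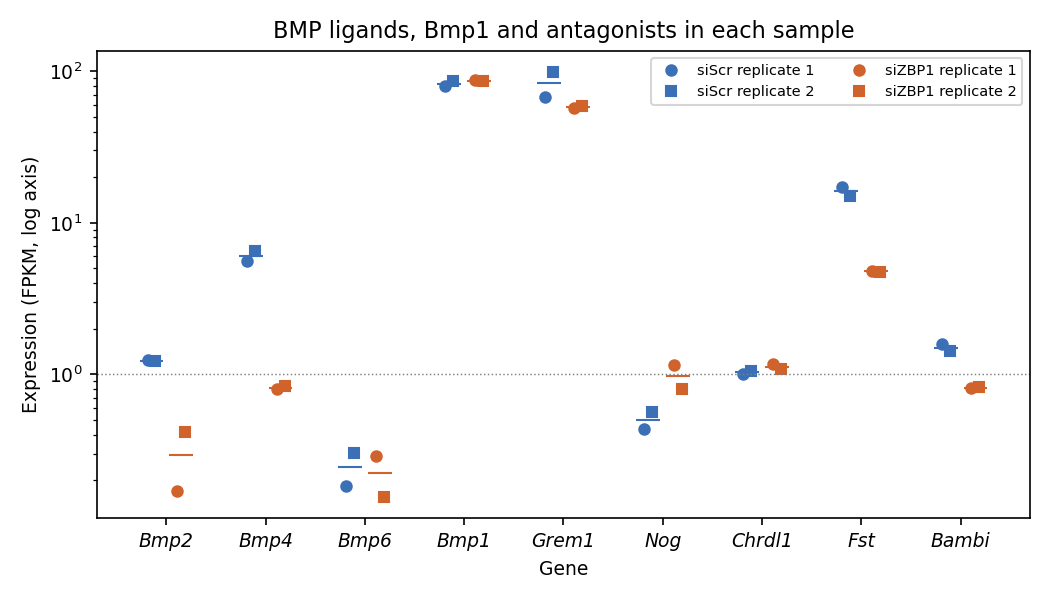
Expression of the 9 genes in FPKM on a log axis, with points for the samples (circles for replicate 1, squares for replicate 2, blue for siScr, orange for siZBP1), short lines for group means and a dotted line at 1 FPKM. Bmp4 and Fst separate the groups most clearly, and Bmp6 is the only gene whose groups overlap.

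The ligands were expressed at low levels, with Bmp4 the leading one of the 3. Bmp4, a ligand known for inducing osteoblast differentiation, was at 5.59 and 6.52 FPKM in the siScr samples and at 0.797 and 0.832 FPKM in the siZBP1 samples. Each siZBP1 sample was far below each siScr sample, and the replicates of a group differed by at most 1.17-fold. The mean was 6.05 ± 0.660 FPKM in siScr cells and 0.814 ± 0.0251 FPKM in siZBP1 cells (SD, n = 2 each), a 7.43-fold lower level. By limma the log2 difference was -1.96 (standard error 0.11, 95% interval -2.26 to -1.65, adjusted p = 0.00284). Bmp4 passed the filter on low values through its siScr samples. In rank by expression it moved from 8593 and 8117 of the 24346 rows in siScr samples to 12083 and 11985 in siZBP1 samples.

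Bmp2, the close relative of Bmp4 and likewise an osteogenic ligand, was at 1.24 and 1.23 FPKM in siScr samples and at 0.170 and 0.419 FPKM in siZBP1 samples. The siScr samples were nearly alike and both siZBP1 samples lay below them, but those of siZBP1 differed by 2.46-fold between themselves. The mean was 4.18-fold lower in siZBP1 cells. With its single annotated transcript of 3555 bases, Bmp2 had roughly 62 and 84 fragments behind its siScr values and only about 6 and 26 behind its siZBP1 values. Its mean over all samples was under 1 FPKM, so it was not tested in the main analysis. When the filter was set at 0.1 FPKM, where 12.1% of genes were lower and 10.4% higher, the limma log2 difference was -0.79 (standard error 0.13, adjusted p = 0.0181).

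Bmp6, a ligand known for its osteogenic activity and for its part in iron regulation through the liver, was barely detected. It was at 0.182 and 0.303 FPKM in siScr samples and at 0.289 and 0.156 FPKM in siZBP1 samples. The groups overlapped, and with the filter at 0.1 FPKM the limma log2 difference was -0.02 (95% interval -0.30 to 0.25, adjusted p = 0.896). A difference in Bmp6 was not detectable at this level.

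Summed over Bmp2, Bmp4 and Bmp6, the level was 7.01 and 8.05 FPKM in siScr samples and 1.26 and 1.41 FPKM in siZBP1 samples. All of the siZBP1 sums lay below the siScr sums, with means of 7.53 ± 0.738 and 1.33 ± 0.107 FPKM (SD, n = 2 each). An exact permutation test over the samples, two-sided, gave p = 0.333, which is the smallest that 2 samples against 2 allow. Bmp4 made up 79.7% and 81.0% of this sum in siScr samples and 63.4% and 59.1% in siZBP1 samples.

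Bmp4 was not the only ligand with values above 1 FPKM. Bmp5, which is named here after its values were seen, was at 7.76 and 5.58 FPKM in siScr samples and at 9.80 and 10.6 FPKM in siZBP1 samples. It exceeded Bmp4 in siScr replicate 1 but not in replicate 2, and in both siZBP1 samples. The limma log2 difference of Bmp5 was 0.56 (standard error 0.15, adjusted p = 0.0573) and missed the threshold. Over all 10 symbols of Bmp ligands in the table, Bmp1 left out, the sum was 16.5 and 17.8 FPKM in siScr samples and 13.8 and 14.7 FPKM in siZBP1 samples. Within that sum Bmp4 had shares of 33.9% and 36.7% in siScr samples and of 5.77% and 5.64% in siZBP1 samples. Bmp5 had 47.1% and 31.4% in siScr samples and 71.1% and 71.6% in siZBP1 samples. The mean total of ligand transcripts was thus at 0.833 of its siScr level, while the share of Bmp4 in it was at 0.162 of its siScr level.

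**Figure D2:**
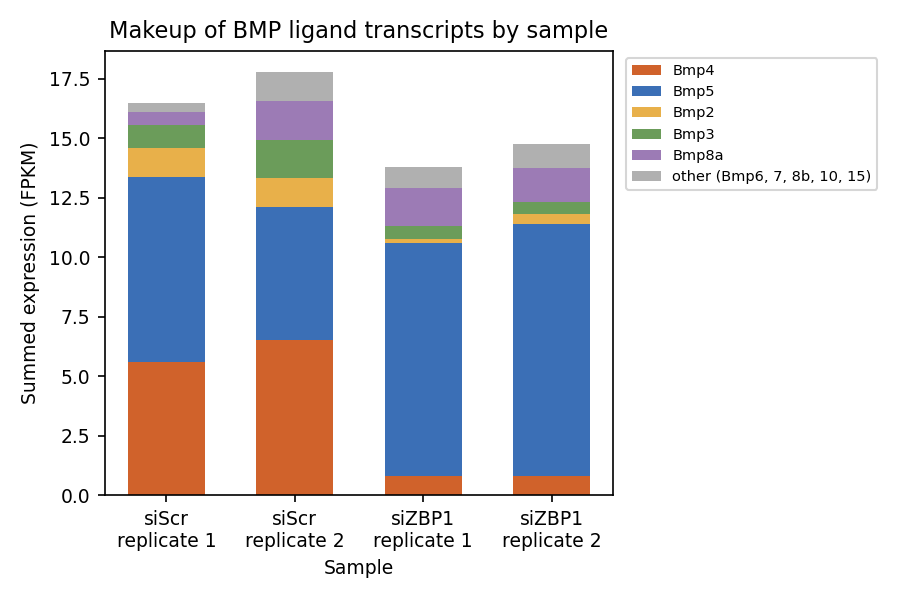
Stacked bars of the FPKM of Bmp ligand symbols in each sample, with Bmp1 left out because it encodes a protease. The Bmp4 segment shrinks from 5.59 and 6.52 FPKM in siScr samples to 0.797 and 0.832 FPKM in siZBP1 samples, while Bmp5 makes up 71.1% and 71.6% of the siZBP1 bars.

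The antagonists did not move as a block. Fst encodes follistatin, which traps activins and some BMPs, and it was at 17.3 and 14.97 FPKM in siScr samples and at 4.83 and 4.71 FPKM in siZBP1 samples. The groups were far apart and the replicates close. The mean was 16.2 ± 1.68 FPKM in siScr cells and 4.77 ± 0.0800 FPKM in siZBP1 cells (SD, n = 2 each), a 3.39-fold lower level. By limma the log2 difference was -1.57 (standard error 0.09, 95% interval -1.81 to -1.33, adjusted p = 0.00278).

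Grem1 encodes gremlin 1, a binder of BMP2 and BMP4 that also marks a population of skeletal progenitors, and it was the antagonist with the highest level. It was at 67.2 and 98.9 FPKM in siScr samples and at 57.5 and 58.7 FPKM in siZBP1 samples. Both siZBP1 samples were lower, but the siScr samples differed by 1.47-fold between themselves, more than the 1.43-fold between the group means. The limma log2 difference was -0.48 (standard error 0.19, 95% interval -0.97 to 0.01, adjusted p = 0.124) and missed the threshold. The size of the difference hung on which control library was kept. Without siScr replicate 1 the log2 difference was -0.76, and without siScr replicate 2 it was -0.20. In these fits the remaining siScr sample was taken to vary as the siZBP1 samples did, which lay close together.

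Nog, which encodes noggin, the classical BMP antagonist, was the antagonist whose values lay higher in siZBP1 cells by over 1.5-fold. It was at 0.438 and 0.567 FPKM in siScr samples and at 1.16 and 0.799 FPKM in siZBP1 samples, a ratio of the means of 1.95. The groups did not overlap, yet roughly 11 and 18 fragments stood behind the siScr values and 21 and 24 behind the siZBP1 values. Nog lay under the filter of the main test. With the filter at 0.1 FPKM the limma log2 difference was 0.39 (standard error 0.13, adjusted p = 0.0973) and missed the threshold.

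Chrdl1, which encodes a chordin-like BMP binder, was at 1.00 and 1.06 FPKM in siScr samples and at 1.17 and 1.08 FPKM in siZBP1 samples. The groups lay next to each other without overlap. The limma log2 difference was 0.07 (95% interval -0.27 to 0.40, adjusted p = 0.736).

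Bambi, the kinase-less pseudoreceptor whose transcription BMP signaling itself is known to raise, was at 1.58 and 1.42 FPKM in siScr samples and at 0.813 and 0.821 FPKM in siZBP1 samples. Both siZBP1 samples were clearly lower, with a ratio of the means of 1.84-fold, and about 114 and 138 fragments stood behind the siScr values and 43 and 73 behind the siZBP1 values. The limma log2 difference of -0.46 (standard error 0.13, 95% interval -0.79 to -0.13) narrowly missed the threshold (adjusted p = 0.0570). It passed in 5 of the 11 analyses that kept all samples, with limma adjusted p between 0.0206 and 0.120, and also without siScr replicate 2 (0.0475). Bambi, like Bmp4, passed the filter on low values through its siScr samples.

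Bmp1 encodes an astacin protease that trims procollagens and can release BMPs by cleaving chordin. It was at 79.8 and 86.2 FPKM in siScr samples and at 87.1 and 86.6 FPKM in siZBP1 samples, which placed it between ranks 861 and 956 of all symbols in every sample. The replicates of siScr differed more than the group means did. The limma log2 difference was 0.07 (95% interval -0.07 to 0.20, adjusted p = 0.388).

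**Figure D3:**
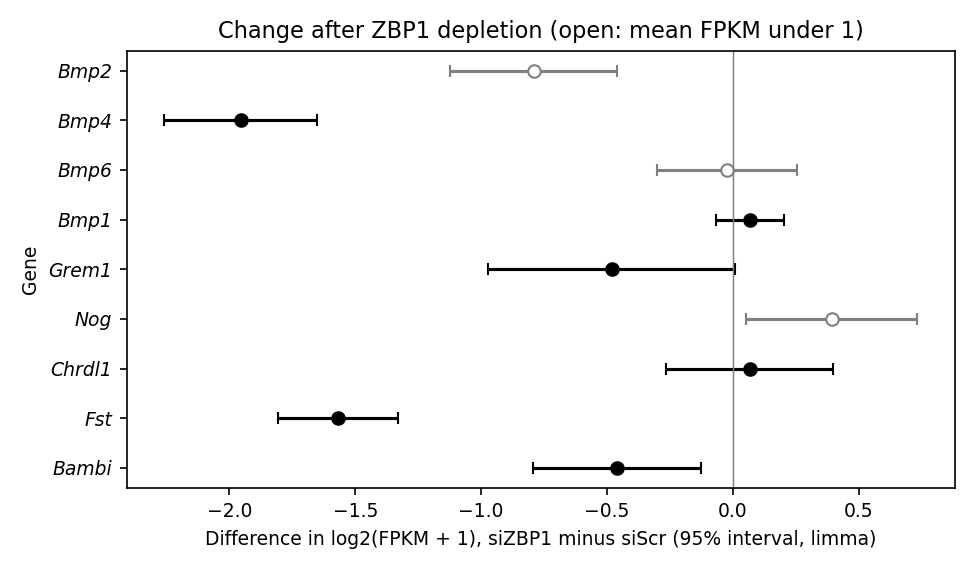
Difference in log2(FPKM + 1) between siZBP1 and siScr cells with 95% intervals from limma, filled for the 6 genes of the main test and open for the 3 with a mean under 1 FPKM, taken from the fit with the filter at 0.1 FPKM. Bmp4 at -1.96 and Fst at -1.57 lie farthest from 0, and the intervals of Bmp6, Bmp1, Grem1 and Chrdl1 span 0.

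Without overlap between the groups, 5 genes were lower (Bmp2, Bmp4, Grem1, Fst and Bambi) and 3 were higher (Bmp1, Nog and Chrdl1). Of all genes with values in both groups, 30.7% were lower and 30.9% higher in this way, 61.6% together, so that separation alone says little with 2 samples per group. Taking group means that differ by over 1.5-fold, 4 genes were lower (Bmp2, Bmp4, Fst and Bambi) and Nog was higher, against 13.8% of genes lower and 10.7% higher. The calls for Bmp4 and Fst held in every analysis with all 4 samples that included them. Both calls were lost when either siZBP1 sample was left out, as was that of the targeted gene Zbp1. In those fits the variance came from the siScr samples alone, and far fewer of all genes were called. The log2 differences stayed between -2.05 and -1.86 for Bmp4 and between -1.67 and -1.47 for Fst over all samples left out.

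**Figure D4:**
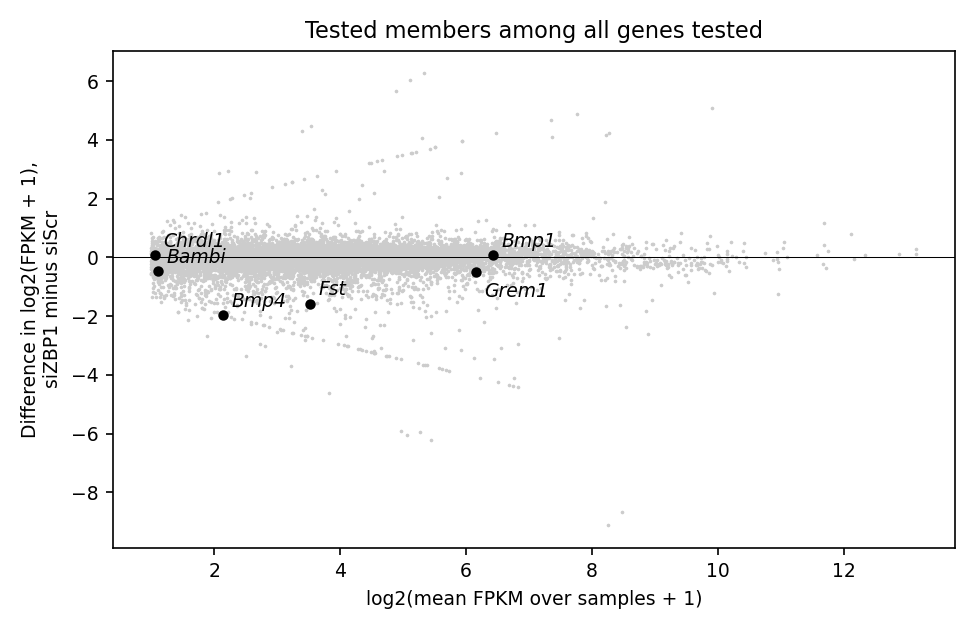
Difference in log2(FPKM + 1), siZBP1 minus siScr, against log2 of the mean FPKM plus 1 for all 11959 genes tested (grey), with the 6 tested genes of the BMP group in black. Bmp4 at -1.96 and Fst at -1.57 lie below most grey points, and Bmp1, Grem1, Chrdl1 and Bambi lie closer to 0.

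The order of the levels differed between the groups. In siScr cells Grem1 and Bmp1 led with means of 83.04 and 83.00 FPKM and overlapping samples, followed by Fst, Bmp4, Bambi, Bmp2, Chrdl1, Nog and Bmp6, each separate from the next. In siZBP1 cells Bmp1 led, followed by Grem1 and Fst, and then by Chrdl1, Nog, Bambi and Bmp4, whose neighbors overlapped, and by Bmp2 and Bmp6, which overlapped as well. Bmp4 thus went from position 4 to position 7 of 9, while Chrdl1 went from 7 to 4 and Nog from 8 to 5.

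How the antagonists stood to the ligands within a sample depended on which ligands were counted. The summed FPKM of Grem1, Nog, Chrdl1 and Fst was 85.9 and 116 in siScr samples and 64.7 and 65.3 in siZBP1 samples, with means of 101 ± 20.9 and 65.0 ± 0.455 (SD, n = 2 each, two-sided exact permutation p = 0.333, the smallest possible). Divided by the sum of Bmp2, Bmp4 and Bmp6, this came to 12.3 and 14.4 in siScr samples and 51.5 and 46.4 in siZBP1 samples. Divided by the sum of all 10 Bmp ligand symbols, Bmp5 among them, it came to 5.21 and 6.498 in siScr samples and to 4.69 and 4.43 in siZBP1 samples, so that the direction turned. Grem1 alone made up 78.1% and 85.6% of the antagonist sum in siScr samples and 88.9% and 89.9% in siZBP1 samples. The antagonist side was kept to Grem1, Nog, Chrdl1 and Fst. Other antagonists, and the activins that follistatin also binds, were not counted. The ratio is of transcripts and says nothing of the proteins or of how tightly they bind.

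In the GRCm38 annotation Bmp4 occupies bases 46383520 to 46390669 of chromosome 14, minus strand, and 2 of its 4 transcripts code for protein. Fst occupies bases 114452290 to 114458951 of chromosome 13, minus strand, with 6 annotated transcripts. Grem1, on chromosome 2 from 113746164 to 113758646, Nog, on chromosome 11 from 89300638 to 89302332, and Bmp2, on chromosome 2 from 133552159 to 133562885, have 1 annotated transcript each. The values are per gene and do not separate transcripts. RefSeq promoters of 300 bases on GRCm38.p6, from 250 before to 50 after the start site, were matched for 3 of the 9 genes, namely Bmp4, Bmp6 and Grem1. They were searched on both strands for letters that TCF/LEF partners of β-catenin are known to bind (CTTTGAA as well as CTTTGAT, further CTTTGTA and lastly CTTTGTT, any of them present in 16.9% of all 32851 promoters) and for those of SMAD proteins (GGCGCC, in 11.9%, and GTCTAGAC, in 0.213%). Only the Grem1 promoter held a match, a single GGCGCC that begins at position -78 from the start site. The pair of windows is shown because Bmp4 changed most and Grem1 held the match. In the window of Bmp4 (chr14:46390655-46390684, minus strand) capitals mark the first 5 transcribed bases, and in that of Grem1 (chr2:113758709-113758738, minus strand) they mark the motif.
Bmp4: ggggaggcgattaagGGAGGagggaagaag
Grem1: cgcggcggcgacGGCGCCtgaccaatggag
A match is a run of letters and not a measured site of binding.

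Among 90 further genes of the BMP pathway, 50 were tested, of which 19 (38.0%) were lower and 5 higher, against 14.8% and 13.5% of all genes. Their median log2 difference was -0.23, against 0.00 over all genes tested. Without siScr replicate 1, 9 were lower and 2 higher, and without siScr replicate 2, 20 and 3. Without siZBP1 replicate 1 or 2 limma called 0 in either direction, while at an unadjusted p under 0.05 there were 19 lower and 5 higher without the first and 19 and 3 without the second. Of 20 other ligands of the superfamily, 6 were tested. Lower were 2 (33.3%), against 14.8% of all genes, namely Inhba and Inhbb, which encode activin subunits. The Inhbb call was lost without siScr replicate 1 (limma adjusted p = 0.0843). Inhba was at 81.0 and 89.7 FPKM in siScr samples and at 38.1 and 41.7 FPKM in siZBP1 samples, with a limma log2 difference of -1.08 (standard error 0.07, adjusted p = 0.00343). Transcripts of follistatin and of a subunit of its activin partners were thus both lower. No other ligand was called higher by limma, and Bmp5 was the 1 that was higher at an unadjusted p under 0.05.

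Of 21 other extracellular modulators, 10 were tested, with 5 lower and 1 higher and a median log2 difference of -0.40. Fstl1, which encodes a follistatin-like glycoprotein, had a limma log2 difference of -1.03 (adjusted p = 0.00343). Htra1, a secreted serine protease, was higher, from 55.5 and 58.0 FPKM in siScr samples to 121 and 105 FPKM in siZBP1 samples (limma log2 difference 0.98, adjusted p = 0.00413). Of the 2 tested tolloid enhancers, Pcolce and Pcolce2, named here because the list holds no call, neither passed in limma, and Pcolce was lower at an unadjusted p under 0.05. Of the proprotein convertases, which cut BMP precursors, Pcsk6 was lower, with 4.89 and 5.35 FPKM in siScr samples and 0.997 and 1.20 FPKM in siZBP1 samples (limma log2 difference -1.54, adjusted p = 0.00373), and Furin was slightly higher (0.18, adjusted p = 0.0453). The Furin call was lost with no filter (limma adjusted p = 0.0539), without the variance trend (0.0971), with the replicate block (0.0740) and without siScr replicate 1 (0.0858) or 2 (0.108).

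Of 8 receptors and co-receptors tested, 1 (12.5%) was lower and 2 were higher, against 14.8% and 13.5% of all genes, with a median log2 difference of 0.03. These were Eng, which encodes endoglin (limma log2 difference -0.34, adjusted p = 0.0461), Bmpr2, the main type II receptor for BMPs (0.22, adjusted p = 0.0400), and Rgmb, a BMP co-receptor (0.43, adjusted p = 0.0151). With all samples kept, limma lost the Eng call in 5 settings (adjusted p 0.0518 to 0.0711) and the Bmpr2 call in 3, the replicate block among them (0.0507 to 0.0696). Without siScr replicate 1 all 3 calls were lost (limma adjusted p 0.112 for Eng, 0.113 for Bmpr2 and 0.0517 for Rgmb), and without siScr replicate 2 those of Bmpr2 (0.110) and Rgmb (0.0547) were. Of 11 SMADs and regulators, 3 (27.3%) were lower and 1 (9.09%) higher, against 14.8% and 13.5% of all genes, with a median of -0.11. Smad6, an inhibitory SMAD that BMP signaling induces, was at 7.74 and 6.29 FPKM in siScr samples and at 3.49 and 3.11 FPKM in siZBP1 samples (limma log2 difference -0.89, adjusted p = 0.0113). Smurf2, which encodes a ubiquitin ligase of the pathway, had a log2 difference of -0.94 (limma adjusted p = 0.00399), and Ski, which encodes a SMAD co-repressor, had one of -0.34 (limma adjusted p = 0.00986). Without siScr replicate 1 the limma adjusted p was 0.0513 for Smad6 and 0.0506 for Ski.

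Of 10 tested genes known to respond to BMPs, 7 (70.0%) were lower, against 14.8% of all genes. None passed the limma threshold as higher, against 13.5% of all genes, with 1 higher at an unadjusted p under 0.05. The median log2 difference of the 10 genes was -0.78. Dlx5, a homeobox factor of osteoblasts, was at 12.6 and 7.91 FPKM in siScr samples and at 3.31 and 3.09 FPKM in siZBP1 samples (limma log2 difference -1.39, adjusted p = 0.0147). Atoh8, a helix-loop-helix factor, was at 6.13 and 4.08 FPKM in siScr samples and at 1.19 and 1.63 FPKM in siZBP1 samples (limma log2 difference -1.33, adjusted p = 0.0150, and 0.0549 without siScr replicate 1). The osteoblast factor Sp7 fell most of these 10 genes, with a limma log2 difference of -2.68 (adjusted p = 0.00401). Sp7 and Runx2 are osteoblast markers of their own and respond to other signals too, so their values are not a measure of BMP signaling alone. The study had reported both as lower after ZBP1 depletion, by RT-qPCR and by FPKM from its RNA-seq, which is the data used here. Dlx5 is likewise a factor of osteoblasts. Since the list was chosen with earlier results known, neither its 7 lower genes nor the 19 lower over all lists test BMP signaling. The ID genes, named with Runx2 after their values were seen, were not uniform. Id1 did not pass the threshold (limma log2 difference -0.25, adjusted p = 0.151). It was at 7.37 and 7.81 FPKM in siScr samples and at 6.85 and 5.68 FPKM in siZBP1 samples. Id3 and Id4 were among those lower, with Id4 past the filter on low values through its siScr samples (1.62 FPKM on average, against 0.608 in siZBP1 samples), whereas Id2 was at 66.8 and 86.5 FPKM in siScr samples and at 105 and 111 FPKM in siZBP1 samples and missed the threshold (limma adjusted p = 0.0508).

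**Figure D5:**
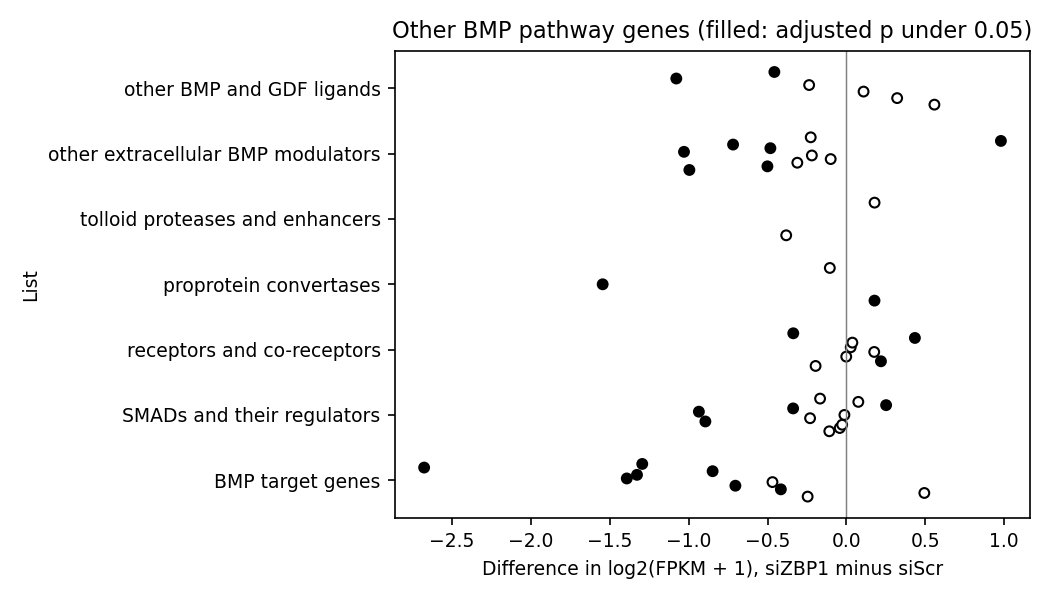
Difference in log2(FPKM + 1), siZBP1 minus siScr, of the 50 tested genes in 7 lists of the BMP pathway, with filled points past an adjusted p of 0.05 by limma and points offset vertically only to set them apart. Of the 10 target genes 7 are filled and lower, while the 8 receptors lie between -0.34 and 0.43.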

How the data were processed

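RNA-seq libraries of 4 mBMSC samples, 2 siScr and 2 siZBP1 per the labels, were made by the authors with the TruSeq kit and mapped with TopHat to mm10. The deposited values are FPKM per gene symbol and sample, extracted with HTSeq per the methods, while the submitters' processing notes name Cufflinks. The gene annotation is not given in the sources used here. The deposited group means equal the means of the replicates, 27 rows carry symbols turned into dates, and 4 rows share a symbol with another row. FPKM of a sample sum to between 477974 and 492166.

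The 9 genes and all lists were chosen with earlier results of these data known. With R 4.3.3, limma 3.58.1 (variance trend on) was run on log2(FPKM + 1) for genes with a mean of at least 1 FPKM, and the code was tested on simulated data. Other settings changed the pseudocount, filter, variance model, scaling, samples and block. Named genes are the 9, Zbp1 and the 3 largest called changes per list, apart from a result that is not reported here. Likeness of pattern was not ranked over 4 samples. Positions are from GENCODE on GRCm38, the build of mm10. Promoters are from RefSeq. Python 3.11.15 was used.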

Additional observations from a re-analysis of the deposited data

How the results depend on the processing

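The log2 differences of the 6 tested genes kept their direction in every analysis run. Bmp2, Bmp6 and Nog were recomputed only under the lower filters. In fits without a siScr or a siZBP1 replicate, the variance of a gene came from the group left whole, moderated with those of all genes. Among the 19 named genes past the threshold, 194 of 205 values with all samples stayed past it (the others were 5 of Eng, 3 of Bmpr2 and 3 of Furin), 27 of 38 did without a siScr replicate, and 0 of 38 did without a siZBP1 replicate, where the remaining sample of the group was taken to vary as much as the samples of the group left whole.

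The number of the 9 genes tested changed with the filter. In the main fit limma called 2 of 6 lower, against 14.8% of all genes. With the filter at 0.1 FPKM it called 4 of 9, against 12.1%. With no filter it called 4 of 9, and 1595 of all genes. With the filter and pseudocount both at 0.1 (added after the values were seen) it called 4 of 9, and 1867 of all genes. Bmp2 and Bambi joined in these 3 settings. With the filter at 5 FPKM, which leaves out Bmp4, it called 1 of 3, and 1533 of all genes. By the ratio of the means over 1.5-fold, 4 of the 9 genes were lower and 1 was higher, against 13.8% and 10.7% of all genes. Among the other pathway genes, 3 in place of 5 were higher with no filter and also 3 without the variance trend. With a sample left out, the counts called lower ranged from 0 to 3 for the 9 genes, from 0 to 20 for the other pathway genes and from 23 to 1297 for all genes, and those called higher from 0 to 3 for the other pathway genes and from 22 to 1019 for all genes. The 0 of the 9 genes came without either siZBP1 replicate, where 3 were still lower at an unadjusted p under 0.05 in limma. Without siScr replicate 1, 760 genes were lower and 518 higher. The summed ligand level differed by between -6.72 and -5.67 FPKM and the antagonist sum by between -50.5 and -20.9 FPKM. Quantile normalization moved the median of all genes from 0.0045 to 0.043.

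Replicate numbers are shared between the groups, but samples of the same number did not deviate together (correlation across genes -0.06). With the replicate block, 1654 genes were lower and 1465 higher, against 1766 and 1618 without it, and 2 of the 9 genes were lower, as without it. The block ended the calls of Furin and Bmpr2 (limma adjusted p = 0.0740 and 0.0585). Depth limits what can be said of Bmp2, Bmp6 and Nog.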
